A study of Mus musculus with 24 samples.

Results

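The genes described here belong to the Hippo pathway and its output: the YAP and TAZ targets Ankrd1, Ccn1, Ccn2, Amotl2 and Ajuba, the kinases Lats1 and Lats2, the coactivators Yap1 and Wwtr1, and the DNA-binding partner Tead1. They were chosen by name, as the rows of the deposited expression table that carry 1 of these 10 symbols alone. Of the table's 12224 rows, 9 met this rule. Lats2 had no row of its own, only a row joined with its neighbour under the name Lats2;Xpo4, which is given as that joined row. All 9 genes averaged 1 scaled unit or more across the 24 libraries, the filter that left 11557 rows for testing. Poly(A) RNA was sequenced from 24 libraries of mpkCCD cells, a mouse epithelial line of the cortical collecting duct of the kidney, in 4 groups of 6. Gpr39 knockout (KO) cells were given 1 µM cpd1324, which activates GPR39, a G protein-coupled receptor that senses zinc, together with 10 µM ZnCl2, or the vehicle, 0.1% DMSO with 10 µM ZnCl2. Wild-type (WT) cells, which had not been transformed, were given the same agonist with ZnCl2 or the same vehicle with ZnCl2, so zinc was present in every group. Treatment was basolateral and lasted 2 h, after 9 days of growth on inserts without the vasopressin analogue dDAVP and 24 h in a simpler medium. The labels name no KO clone number, no edited part of Gpr39 and no batch, and library numbers ran by group. The KO edit and the making of the KO line therefore cannot be told apart, and since the labels do not say that the 6 libraries of a group were separate cultures, each p-value measures the spread between these libraries only.

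In the Hippo pathway, the kinases MST1 and MST2 with their scaffolds activate the kinases LATS1 and LATS2, which phosphorylate the coactivators YAP (gene Yap1) and TAZ (gene Wwtr1) and so hold them in the cytoplasm. Unphosphorylated YAP and TAZ enter the nucleus and bind TEAD factors on DNA, where they raise genes such as Ankrd1, Ccn1 and Ccn2. In epithelia the pathway responds to cell density, polarity, the actin cytoskeleton and signals from G protein-coupled receptors, and Amotl2 and Lats2 are themselves targets that restrain YAP. YAP and TAZ are regulated mainly as proteins, by phosphorylation and location, which these RNA measurements do not read.

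Promoter windows are shown because TEAD factors recognise a short motif, and because the genes below include 2 whose RNA was over 10-fold higher with agonist in WT cells (Ankrd1 and Ccn1), 1 whose RNA was lower (Amotl2), and the coactivator pair Wwtr1 and Yap1. Each window runs 5′ to 3′ in the direction of the gene from 250 bases before to 50 bases after an annotated start, and comes from RefSeq on build GRCm38.p6, whereas the expression table was made on GRCm39 per the submitters' processing notes. Capitals mark the TEAD motif GGAATG, or its reverse complement CATTCC where the motif lies on the opposite strand. The windows are Ankrd1 chr19:36119795-36120094 on the minus strand, Ccn1 chr3:145649936-145650235 on the minus strand, Amotl2 chr9:102717554-102717853 on the plus strand, Wwtr1 chr3:57575861-57576160 on the minus strand and Yap1 chr9:8004547-8004846 on the minus strand.
Ankrd1: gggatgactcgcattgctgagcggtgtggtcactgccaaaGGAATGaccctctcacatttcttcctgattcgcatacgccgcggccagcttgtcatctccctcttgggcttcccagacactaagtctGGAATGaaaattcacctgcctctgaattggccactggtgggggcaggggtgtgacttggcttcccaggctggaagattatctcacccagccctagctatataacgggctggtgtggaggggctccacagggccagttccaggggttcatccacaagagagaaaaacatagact
Ccn1: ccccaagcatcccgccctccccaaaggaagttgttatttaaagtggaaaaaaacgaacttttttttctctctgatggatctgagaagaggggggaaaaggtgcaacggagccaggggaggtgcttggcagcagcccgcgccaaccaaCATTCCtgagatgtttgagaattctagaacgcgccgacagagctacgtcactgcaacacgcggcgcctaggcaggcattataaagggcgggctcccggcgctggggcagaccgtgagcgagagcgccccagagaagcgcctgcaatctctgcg
Amotl2: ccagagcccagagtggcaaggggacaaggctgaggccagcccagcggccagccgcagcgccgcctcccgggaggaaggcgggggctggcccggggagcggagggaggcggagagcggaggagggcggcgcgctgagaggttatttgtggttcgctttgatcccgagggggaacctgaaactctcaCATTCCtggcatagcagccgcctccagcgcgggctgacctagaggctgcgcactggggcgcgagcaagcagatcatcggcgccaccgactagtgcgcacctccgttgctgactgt
Wwtr1: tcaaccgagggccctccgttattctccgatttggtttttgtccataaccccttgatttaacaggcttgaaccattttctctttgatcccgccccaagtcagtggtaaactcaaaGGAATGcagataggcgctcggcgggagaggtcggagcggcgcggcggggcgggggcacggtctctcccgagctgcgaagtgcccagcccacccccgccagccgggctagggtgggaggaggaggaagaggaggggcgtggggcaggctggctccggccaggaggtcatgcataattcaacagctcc
Yap1: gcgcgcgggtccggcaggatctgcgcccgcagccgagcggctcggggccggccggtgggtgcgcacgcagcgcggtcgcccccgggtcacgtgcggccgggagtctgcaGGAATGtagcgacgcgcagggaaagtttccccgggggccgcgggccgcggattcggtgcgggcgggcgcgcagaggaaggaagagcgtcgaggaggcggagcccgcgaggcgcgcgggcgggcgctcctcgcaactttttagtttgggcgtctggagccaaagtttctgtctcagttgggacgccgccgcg
The motif GGAATG began at positions -210 and -123 from the start of Ankrd1, on the strand of the gene. Its reverse complement began at -103 in Ccn1 and at -65 in Amotl2. It began at -136 in Wwtr1 and at -141 in Yap1, both on the strand of the gene. Windows were found for 8 of the 10 listed genes, all but Ccn2 and Tead1, as 10 windows. On either strand, 7 of those 8 genes had the motif in at least 1 window, every gene but Lats1, and 14.7% of all 32851 windows of the same length held it. The motif was in the windows of genes whose RNA was higher, lower and not called after agonist in WT cells. The AP-1 motif TGANTCA was in none of the windows of the 8 genes and in 7.81% of all windows, and the CArG box bound by serum response factor was also in none of them and in 1.63% of all windows. A match is a description of these letters and shows no binding.

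Recovered read totals were 29.8 to 51.9 M per library, and the fewest reads of any of the 9 genes were those of Ankrd1 in WT vehicle libraries, 1496 to 2473. Gpr39, the targeted gene, averaged 9.37 ± 0.645 scaled units in KO vehicle libraries and 21.6 ± 1.61 in WT vehicle libraries (SD, n = 6 each), 43.4% of the WT mean. Scaled units are the authors' values, read counts divided by a library factor and by gene length, times 1 constant, so levels of different genes can be compared. Of 11 principal-cell markers 9 had a row, all but Aqp4 and Gata3, and their summed level was 558 to 719 in WT agonist, 667 to 874 in WT vehicle, 711 to 1068 in KO agonist and 949 to 1105 in KO vehicle libraries. Of 7 epithelial markers 5 had a row, and their sum was 9207 to 11995 in WT agonist, 4469 to 5106 in WT vehicle, 4092 to 4715 in KO agonist and 4201 to 4757 in KO vehicle libraries. All 4 endothelial markers and 6 of 7 fibroblast markers had no row of their own, which does not show that they were not expressed. Of 7 intercalated-cell markers 5 had a row, with sums of 72.3 to 157 across the libraries. The immune marker Cd68, 1 of 4 with a row, was at 24.2 to 47.2, and the proximal-tubule marker Lrp2, 1 of 5, at 4.49 to 16.4. The column totals, which the authors' library factors do not force to be equal, were 1085490 to 1197560 scaled units in WT agonist libraries, and 942669 to 989598 in WT vehicle libraries. KO vehicle library 6 stood apart in 3 of the 9 genes, with low Ajuba and high Lats1 and Tead1, and values without it are given where it changed a call, and for Tead1, Ajuba and the 3 strongest targets in KO cells. In these bulk libraries, fewer cells that express a gene and less of its RNA per cell cannot be told apart.

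**Figure D1:**
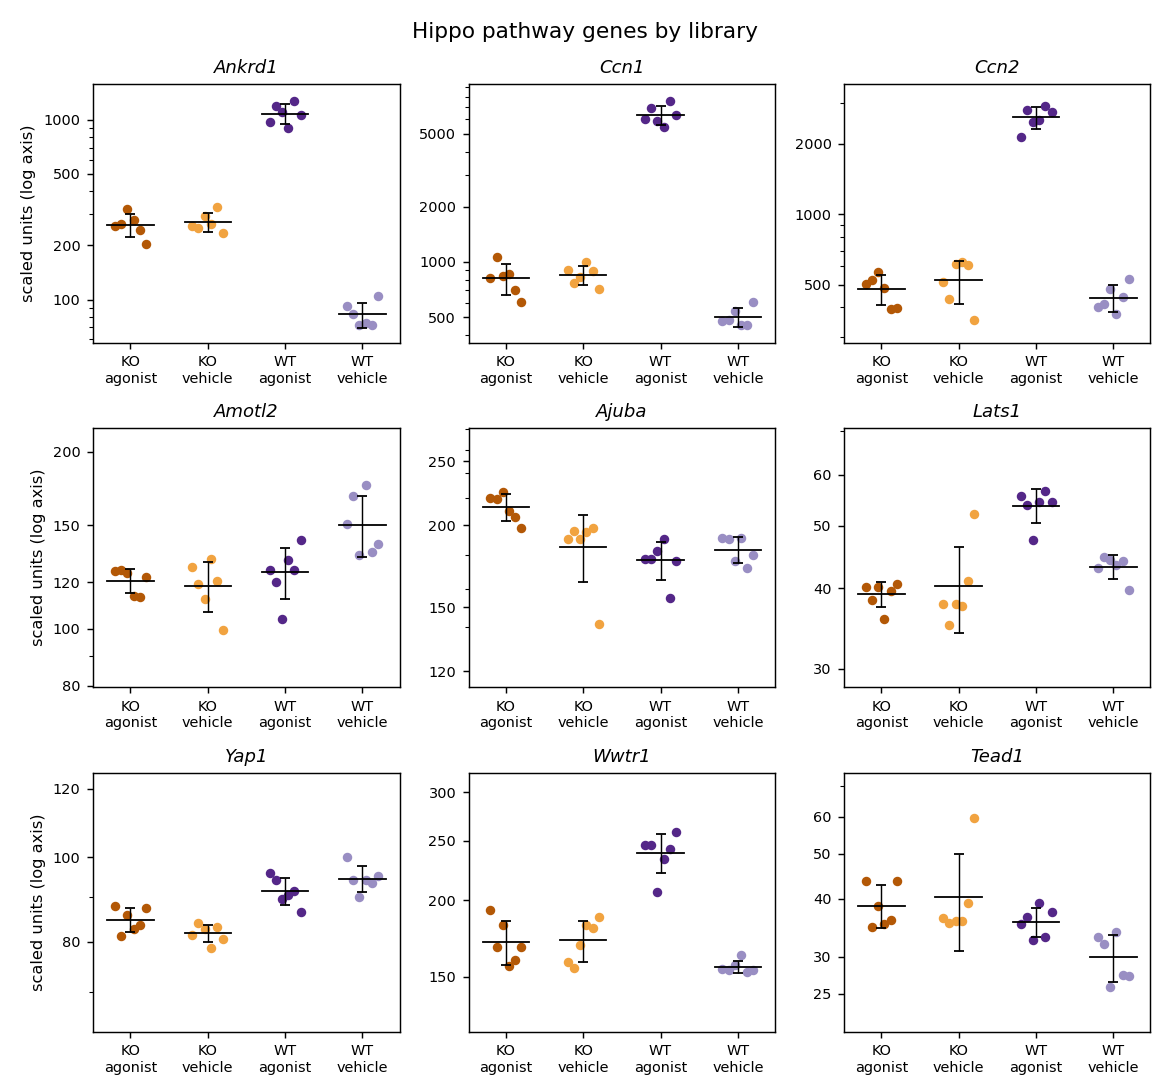
Level of each of the 9 genes in scaled units (log axis) in each of the 24 libraries, grouped as KO agonist, KO vehicle, WT agonist and WT vehicle, with points for libraries and marks for the mean ± SD of 6. Ankrd1, Ccn1 and Ccn2 stand far above every other group in WT agonist libraries, and the other 6 genes move little by comparison.

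The agonist was compared with vehicle in WT cells to ask how cells with the receptor respond. Ankrd1, Ccn1 and Ccn2 were 5.89 to 13.1 times as high with agonist after 2 h, Wwtr1 1.54 times and Lats1 1.24 times, and Amotl2 stood at 82.9% of its vehicle level. In limma's test over all 11557 rows, 7 of the 9 genes passed an adjusted p of 0.05, 6 higher and 1 lower, where 57.2% of all rows passed, 28.6% in each direction. The median log2 fold change was 0.31 over the 9 genes and -0.01 over all rows. The libraries of both groups did not overlap for 5 of the 9 genes, and for 37.5% of all rows.

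Ankrd1 encodes a cardiac-type ankyrin repeat protein of the nucleus and sarcomere and is among the most widely used YAP targets. It had 902 to 1273 scaled units with a median of 1079 in WT agonist libraries, against 71.8 to 105 with a median of 78.6 in WT vehicle libraries. Every agonist library lay above every vehicle library, and the log2 fold change was 3.70 ± 0.11 (SE; limma, adjusted p = 1.22e-19). Ccn1, formerly Cyr61, encodes a secreted matrix protein that binds integrins. It had 5458 to 7527 scaled units with a median of 6189 in WT agonist libraries, against 452 to 603 with a median of 479 in WT vehicle libraries. The groups lay far apart, with a log2 fold change of 3.66 ± 0.11 (SE; limma, adjusted p = 2.04e-19), and each agonist library held at least 111280 reads of this 1 gene. Ccn2, formerly Ctgf, encodes the related secreted protein connective tissue growth factor. It had 2148.5 to 2891 scaled units with a median of 2627 in WT agonist libraries, against 374 to 532 with a median of 427 in WT vehicle libraries. The groups did not overlap, and the log2 fold change of 2.56 ± 0.12 (SE; limma, adjusted p = 3.31e-15) was smaller than those of Ankrd1 and Ccn1.

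The other 2 listed targets did not follow. Amotl2, an angiomotin-family scaffold that binds YAP and is induced by it, had 104 to 141 scaled units with a median of 126 in WT agonist libraries, against 134 to 176 with a median of 145 in WT vehicle libraries. The ranges overlapped at their edges, and the gene fell by 0.27 ± 0.07 on the log2 scale (SE; limma, adjusted p = 0.0037). Ajuba, a LIM-domain protein that binds LATS kinases at cell junctions, had 155 to 190.4 scaled units with a median of 178 in WT agonist libraries, against 172 to 191 with a median of 185 in WT vehicle libraries. These ranges lay largely on top of each other, the log2 difference was -0.06 ± 0.06 (SE), and its 95% interval ran from -0.19 to 0.08 (limma, adjusted p = 0.474).

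Lats1, which phosphorylates YAP and TAZ, had 47.4 to 56.7 scaled units with a median of 54.4 in WT agonist libraries, against 39.7 to 44.8 with a median of 43.8 in WT vehicle libraries. All agonist libraries were higher, by 0.31 ± 0.07 on the log2 scale (SE; limma, adjusted p = 0.000302). The joined row Lats2;Xpo4, in which reads of the second LATS kinase and of an exportin cannot be told apart, averaged 33.6 ± 1.32 scaled units in WT agonist and 24.7 ± 1.30 in WT vehicle libraries (SD, n = 6 each), a log2 fold change of 0.44 ± 0.04 (SE; limma, adjusted p = 3.47e-09).

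The paired coactivators differed. Wwtr1, which encodes TAZ, had 207 to 259 scaled units with a median of 244 in WT agonist libraries, against 153 to 163 with a median of 154 in WT vehicle libraries. The groups were clearly separate, with a log2 fold change of 0.61 ± 0.06 (SE; limma, adjusted p = 9.36e-10). Yap1 had 86.6 to 96.0 scaled units with a median of 91.1 in WT agonist libraries, against 90.0 to 100.2 with a median of 94.2 in WT vehicle libraries. Its ranges overlapped, and the log2 difference of -0.05 ± 0.03 (SE; limma, adjusted p = 0.224) had a 95% interval from -0.12 to 0.02. Tead1, the TEAD factor on the list, had 32.6 to 39.1 scaled units with a median of 35.9 in WT agonist libraries, against 25.9 to 34.0 with a median of 29.7 in WT vehicle libraries. The ranges overlapped, and the log2 fold change of 0.25 ± 0.10 (SE; limma, adjusted p = 0.0357) missed the threshold in turn without each of WT agonist libraries 1, 2, 4 and 6 and WT vehicle libraries 3, 5 and 6, with adjusted p up to 0.0903.

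The scaling changed the calls of the small changes. When every library was set to the same total, the median log2 fold change of all rows was -0.24 instead of -0.01, and on that scale Lats1 was at 0.07 (limma, adjusted p = 0.376), Tead1 at 0.02 (0.899), Ajuba at -0.30 (0.000516) and Yap1 at -0.29 (6.55e-07). Relative to that median the same values were 0.31 for Lats1, 0.26 for Tead1, -0.06 for Ajuba and -0.05 for Yap1. Equal totals divide each library by 1 number, so these relative values stay near those above by construction and are no separate check. At equal totals the split of the 9 genes was 4 higher and 3 lower, where 72.4% of all rows passed. It was 5 higher and 3 lower under quantile scaling, where 59.0% of all rows passed. Ankrd1 at 3.46, Ccn1 at 3.42, Ccn2 at 2.32, Wwtr1 at 0.37 and Amotl2 at -0.51 passed under the same total too. The 5 epithelial markers with a row also rose with agonist in WT cells, by a median log2 fold change of 0.78. All 5 passed as higher, where 28.6% of all rows did. Of the 9 principal-cell markers with a row, 5 passed as lower and 0 as higher, with a median of -0.31, where 28.6% of all rows were lower. Their median with agonist in KO cells was -0.37. There 1 of the 9 passed, as lower, where 4.64% of all rows did. In KO cells 8 of the 9 had an unadjusted p under 0.05 in limma's test, in either direction, where 28.0% of all rows did. The interaction passed for 2 of these 9 markers, where 41.1% of all rows passed. The part of both marker lists in the results for the 9 Hippo pathway genes was not tested.

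**Figure D2:**
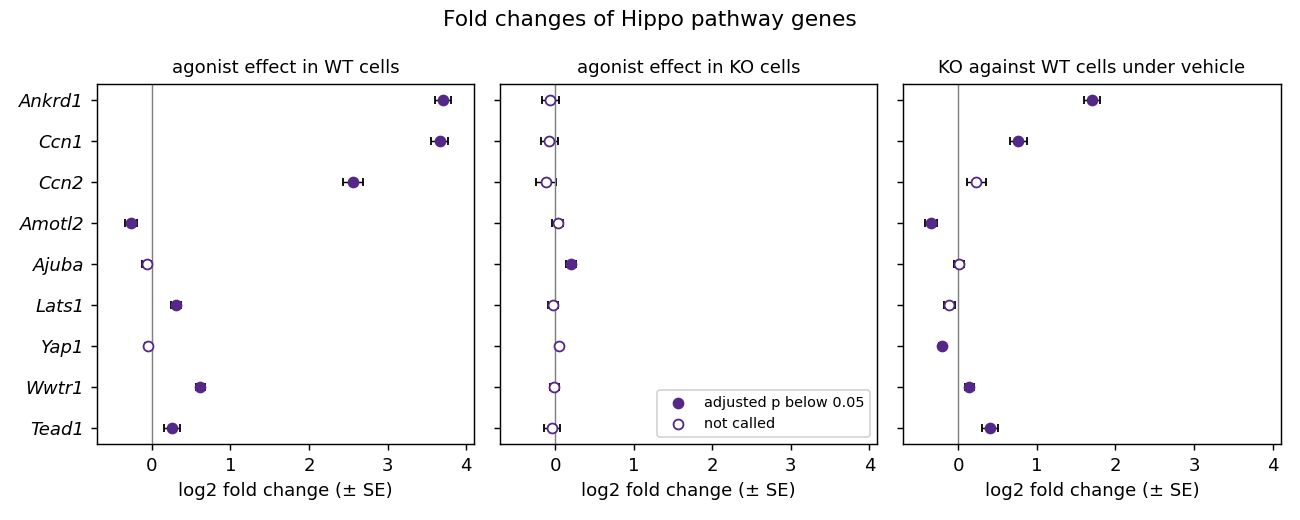
Log2 fold change of each of the 9 genes with bars for ± 1 SE, in panels for the agonist against vehicle in WT cells, the same in KO cells, and vehicle-treated KO cells against WT cells, with filled points for an adjusted p under 0.05. The 3 large shifts in WT cells, 3.70, 3.66 and 2.56 for Ankrd1, Ccn1 and Ccn2, have no counterpart in KO cells, where all 9 values lie between -0.11 and 0.21.

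The same treatment in KO cells shows the response of cells whose Gpr39 RNA is reduced. None of the 3 strongest targets passed the test there. Ankrd1 had 204 to 317 scaled units with a median of 259 in KO agonist libraries, against 235 to 328 with a median of 259 in KO vehicle libraries. Ccn1 had 607 to 1063 with a median of 828 in KO agonist libraries, against 714 to 1003 with a median of 859 in KO vehicle libraries. Ccn2 had 393 to 568 with a median of 494 in KO agonist libraries, against 353 to 623 with a median of 560.1 in KO vehicle libraries. For all 3 genes the ranges of both KO groups lay on top of each other. The log2 differences had 95% intervals from -0.28 to 0.16 for Ankrd1, from -0.30 to 0.15 for Ccn1 and from -0.37 to 0.14 for Ccn2 (limma, adjusted p = 0.740, 0.679 and 0.573). Without KO vehicle library 6 the differences were -0.10 for Ankrd1, -0.12 for Ccn1 and -0.22 for Ccn2, and none passed (adjusted p = 0.556, 0.449 and 0.164). The 95% intervals with all libraries lie below the WT intervals of the same genes, which began at 3.49 for Ankrd1, 3.44 for Ccn1 and 2.31 for Ccn2.

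Among the 9 genes only Ajuba passed the test in KO cells, 1 of 9 and higher, where 9.30% of all rows passed, 4.66% higher and 4.64% lower, and no gene's groups were free of overlap, against 4.53% of all rows. Ajuba had 198 to 225 scaled units with a median of 215 in KO agonist libraries, against 142 to 198 with a median of 193 in KO vehicle libraries. The lowest agonist and highest vehicle library met at about the same value, and the log2 fold change was 0.21 ± 0.06 (SE; limma, adjusted p = 0.0435). Without KO vehicle library 6, whose 142 scaled units were the lowest, the value was 0.13 (adjusted p = 0.0439), and the call was lost in turn without each of KO agonist libraries 1, 3, 4, 5 and 6, KO vehicle libraries 1 and 3, WT agonist library 6 and WT vehicle library 6, with adjusted p up to 0.0950. The remaining genes were near 0: log2 differences were 0.03 ± 0.07 for Amotl2, 0.05 ± 0.03 for Yap1 and -0.04 ± 0.10 for Tead1 (SE). Wwtr1 averaged 171 ± 14.0 scaled units in KO agonist and 172 ± 13.3 in KO vehicle libraries (SD, n = 6 each), and Lats1 averaged 39.1 ± 1.77 and 40.2 ± 6.12 in KO agonist and KO vehicle libraries (SD, n = 6 each).

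The difference between the agonist effects in WT and KO cells was tested as an interaction. It passed for 7 of the 9 genes, 5 higher and 2 lower, where 41.1% of all rows passed, 21.5% higher and 19.6% lower. The agonist effect was 3.76 ± 0.15 log2 units larger in WT than in KO cells for Ankrd1 (SE; limma, adjusted p = 2.71e-16), 3.74 ± 0.15 for Ccn1 (4.77e-16) and 2.67 ± 0.17 for Ccn2 (3.61e-12). Wwtr1 followed at 0.62 ± 0.08 (5.55e-07). Lats1 was at 0.34 ± 0.09 (0.00505), and at 0.06 (adjusted p = 0.580) with the same total in every library. Amotl2, at -0.30 ± 0.11 (0.0249), and Ajuba, at -0.26 ± 0.09 (0.0219), were the 2 genes with the effect lower in WT cells. With the same total in each library the split was 4 higher and 3 lower, where 65.2% of all rows passed, with Yap1 at -0.38 (4.58e-06). For Amotl2 the call was lost without WT vehicle library 4, at -0.25 (adjusted p = 0.0516). Yap1, at -0.10 ± 0.05 (0.0947), and Tead1, at 0.30 ± 0.14 (0.104), did not pass. Without KO vehicle library 6 the value of Tead1 was 0.18 (adjusted p = 0.149). The WT and KO effects of each gene come from separate groups of libraries.

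KO cells were also set against WT cells under vehicle, to ask how the genes stood before agonist. Ankrd1 was 3.26 times and Ccn1 1.70 times as high in KO as in WT cells, Tead1 was 1.35 times as high, and Amotl2 and Yap1 stood at 78.7% and 86.5% of the WT level. Of the 9 genes 6 passed, 4 higher and 2 lower, where 47.8% of all rows passed, and 5 had groups without overlap, against 27.3% of all rows. Without KO vehicle library 6, 7 of the 9 passed, where 52.5% of all rows did. The summed levels of the principal-cell markers in KO vehicle and WT vehicle libraries did not overlap. Of the 9 markers with a row 5 passed, 3 higher and 2 lower, 55.6% where 47.8% of all rows passed. Their directions were mixed, with log2 fold changes of 2.29 for Aqp2, 1.94 for Hsd11b2 and -1.83 for Scnn1b. Slc12a3, the only 1 of 4 thick-limb and distal-tubule markers with a row, was at 4.95 to 7.75 scaled units in KO vehicle and 0.200 to 0.740 in WT vehicle libraries. Intercalated-cell sums were 87.2 to 101 in KO vehicle and 115 to 157 in WT vehicle libraries. Of the 3 intercalated-cell markers tested 1 passed as higher and 2 as lower. Lrp2 was at 4.49 to 6.77 in KO vehicle and 8.06 to 10.6 in WT vehicle libraries, and Cd68 did not pass. The part of these differences in the results for the 9 genes was not tested.

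Ankrd1 had 235 to 328 scaled units in KO vehicle libraries and 71.8 to 105 in WT vehicle libraries. The lowest KO library was over 2-fold above the highest WT library, and the log2 fold change was 1.70 ± 0.11 (SE; limma, adjusted p = 1.65e-12). Ccn1 had 714 to 1003 in KO vehicle libraries and 452 to 603 in WT vehicle libraries, groups without overlap and a log2 fold change of 0.76 ± 0.11 (SE; limma, adjusted p = 2.30e-06). Ccn2 was at 0.23 ± 0.12 on the log2 scale and did not pass (SE; limma, adjusted p = 0.126), with a 95% interval from -0.02 to 0.49. Without KO vehicle library 6, its log2 fold change was 0.34 (adjusted p = 0.0120). KO vehicle means of these 3 targets stayed below the WT agonist means, at 25.0% for Ankrd1, 13.4% for Ccn1 and 20.2% for Ccn2.

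Amotl2 had 99.4 to 131 scaled units in KO vehicle libraries and 134 to 176 in WT vehicle libraries, all KO libraries lower, and fell by 0.34 ± 0.07 on the log2 scale (SE; limma, adjusted p = 0.000534). Yap1 had 78.7 to 84.1 in KO vehicle libraries and 90.0 to 100.2 in WT vehicle libraries, again with all KO libraries lower, and fell by 0.21 ± 0.03 (SE; limma, adjusted p = 1.37e-05). Tead1 had 35.5 to 59.8 in KO vehicle libraries and 25.9 to 34.0 in WT vehicle libraries, and every KO library was higher. Its log2 fold change was 0.41 ± 0.10 (SE; limma, adjusted p = 0.00187), and 0.29 (0.00173) without KO vehicle library 6, the highest. Wwtr1 passed narrowly, at 0.14 ± 0.06 (adjusted p = 0.0416) with overlapping groups, and the call was lost without each of 9 libraries in turn, KO vehicle 3, 4, 5 and 6 and WT vehicle 1, 2, 3, 5 and 6, with adjusted p up to 0.0905. Lats1, at -0.11 ± 0.07 (adjusted p = 0.166), and Ajuba, at 0.01 ± 0.06 (0.947), did not pass, and Lats1 passed at -0.19 (adjusted p = 0.00130) without KO vehicle library 6.

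A ratio of 2 genes within a library does not depend on the library factor, so the coactivator pair and the CCN pair were compared in this way with exact permutation tests (two-sided, 6 against 6 libraries, adjusted over 6 tests, smallest possible raw p = 0.00216). The level of Wwtr1 over that of Yap1 was 2.31 to 2.99 with a median of 2.60 in WT agonist libraries, against 1.54 to 1.74 with a median of 1.63 in WT vehicle libraries. Every agonist library was higher, by 0.66 in mean log2 ratio (exact permutation test, adjusted p = 0.00325). In KO cells this ratio was 1.89 to 2.20 with agonist and 1.85 to 2.33 with vehicle, overlapping ranges with a log2 difference of -0.06 (exact permutation test, adjusted p = 0.454). Under vehicle the ratio was higher in every KO than in every WT library, by 0.35 (exact permutation test, adjusted p = 0.00325).

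The level of Ccn1 over that of Ccn2 was 2.17 to 2.82 with a median of 2.42 in WT agonist libraries, against 1.03 to 1.21 with a median of 1.15 in WT vehicle libraries. The ranges were separate and the log2 difference was 1.10 (exact permutation test, adjusted p = 0.00325), so the 2 CCN genes rose unequally. In KO cells the ratio was 1.48 to 2.02 with agonist and 1.35 to 2.02 with vehicle, a log2 difference of 0.04 (exact permutation test, adjusted p = 0.701). Under vehicle it was higher in KO than in WT libraries without overlap, by 0.53 (exact permutation test, adjusted p = 0.00325).

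**Figure D3:**
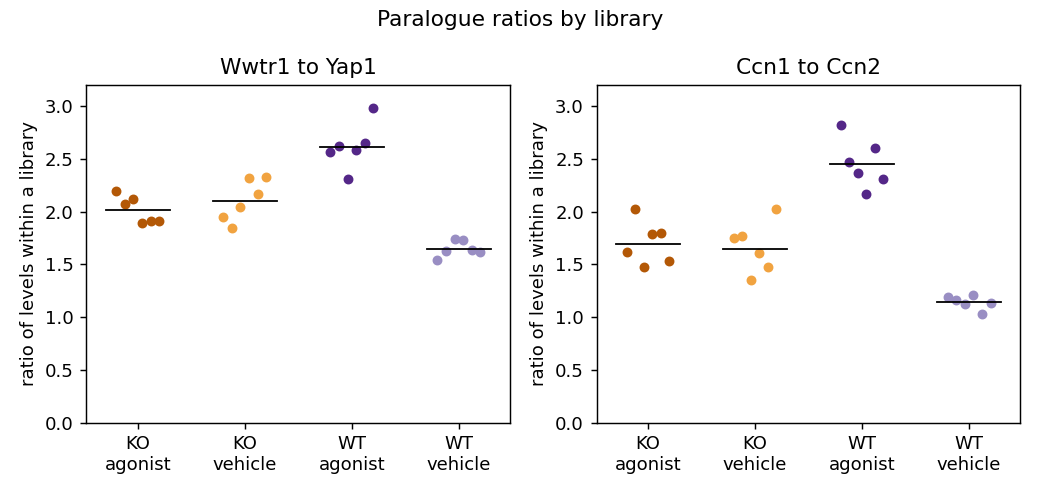
Ratio of levels within each library, Wwtr1 over Yap1 and Ccn1 over Ccn2, for the groups KO agonist, KO vehicle, WT agonist and WT vehicle, with a line at the geometric mean of 6 libraries. The group means are highest for WT agonist and lowest for WT vehicle libraries in both ratios, with medians of 2.60 and 1.63 for Wwtr1 over Yap1, and KO vehicle libraries 4 and 6 lie just above the lowest WT agonist library in that ratio.

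Ranked by level per length, Ccn1 and Ccn2 were the highest of the 9 genes in all 4 groups. Their ranges overlapped in WT vehicle libraries and were separate in the other groups. Ankrd1 came next in KO agonist, KO vehicle and WT agonist libraries. In WT vehicle libraries Ankrd1 stood below Yap1, at 82.9 ± 13.1 against 94.5 ± 3.31 scaled units (SD, n = 6 each), and their ranges overlapped. Amotl2 and Yap1 kept an order with Amotl2 higher in every group. Lats1 and Tead1 were the lowest pair throughout, with overlapping ranges in both KO groups and Lats1 higher without overlap in both WT groups.

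Other genes of the pathway were taken from 4 lists. Among upstream kinases and regulators, 16 of 18 had a row of their own and were tested. In WT cells 11 of them passed with agonist, all higher (68.8%, where 28.6% of all rows rose). At equal library totals the split was 6 higher and 4 lower, where 72.4% of all rows passed. There Mob1a, Nf2 and Wwc1 changed sign, and Nf2 passed as lower, at -0.15 (limma, adjusted p = 0.00384). Relative to the median of all rows on that scale, the list's median was 0.25 and these 3 genes were at 0.23, 0.09 and 0.23. Equal totals leave such relative values nearly unchanged by construction. Under quantile scaling the split was 7 higher and 1 lower, where 59.0% of all rows passed. Frmd6, a FERM-domain protein upstream of the kinase cascade, had 132 to 196 scaled units with a median of 169.9 in WT agonist libraries, against 45.2 to 52.1 with a median of 50.1 in WT vehicle libraries. Its groups were far apart, with a log2 fold change of 1.73 ± 0.07 (SE), and in KO cells it was at 0.16 ± 0.07 with agonist, which did not pass. Taok1, a kinase that can activate the MST kinases, rose by 0.56 ± 0.08. Amotl1, an angiomotin relative of Amotl2, rose by 0.51 ± 0.05, and Mob1b, a LATS coactivator, rose by 0.46 ± 0.06. In KO cells 1 of the 16 passed, where 9.30% of all rows did, namely Amot, at 0.29 ± 0.09 (limma, adjusted p = 0.0377). Under vehicle 4 were higher and 3 lower in KO than in WT cells, 43.8% of the list against 47.8% of all rows, among them Wwc2, a relative of the scaffold KIBRA, at 0.46 ± 0.06, and the LATS coactivator Mob1a, at -0.50 ± 0.04.

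Of 6 TEAD factors and cofactors, all tested, 2 rose and 1 fell with agonist in WT cells, where 57.2% of all rows passed, against 1 higher and 3 lower at equal library totals, where 72.4% of all rows passed. The median log2 fold change was -0.0018 for the list and -0.01 for all rows. Vgll3, a cofactor that binds TEAD proteins, had 58.9 to 83.4 scaled units with a median of 71.8 in WT agonist libraries, against 19.2 to 21.4 with a median of 20.2 in WT vehicle libraries. It rose by 1.79 ± 0.07 on the log2 scale with no overlap. Its relative Vgll1 was low, with 12 to 33 reads in WT agonist and 53 to 85 reads in WT vehicle libraries, and fell by 1.00 ± 0.16 on the log2 scale. Tead3 rose by 0.22 ± 0.07, but was at -0.02 with the same total in every library and missed the threshold under quantile scaling. In KO cells 0 of the 6 passed in limma's test, where 9.30% of all rows did, and 0 with voom on the recovered reads, where 9.74% did. An unadjusted p under 0.05 in limma's test was found for 0 of the 6 and for 28.0% of all rows. Under vehicle 4 of the 6 passed as lower in KO than in WT cells and the other 2 did not pass, where 23.9% of all rows were lower. Tead4 was at 19.9 to 24.3 scaled units in KO vehicle and 32.1 to 43.2 in WT vehicle libraries, separate ranges and a log2 fold change of -0.80 ± 0.07. This direction was opposite to that of Tead1.

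Of 16 further YAP and TAZ targets 11 had a row and were tested. With agonist in WT cells 8 passed, all higher, with a median log2 fold change of 0.41, where 28.6% of all rows were higher. At equal library totals 4 were higher and 1 lower, Arhgef17, where 72.4% of all rows passed, and the value of Crim1 changed sign. The list's median was then 0.41 relative to that of all rows, which this scaling leaves nearly unchanged by construction. F3, tissue factor, the cell-surface starter of blood clotting, had 2349 to 3607 scaled units with a median of 2770.3 in WT agonist libraries, against 502 to 880.0 with a median of 674 in WT vehicle libraries. Gadd45a, a stress-induced regulator of growth arrest, had 144 to 212 with a median of 174 in WT agonist libraries, against 40.8 to 49.9 with a median of 42.2 in WT vehicle libraries. Both genes had separate groups, with log2 fold changes of 2.09 ± 0.12 for F3 and 2.00 ± 0.09 for Gadd45a, and these lay between Ccn2 and Frmd6 in size. Ccdc80, a secreted matrix protein, had very few reads in its row, 5 to 10 in WT agonist and 1 to 7 in WT vehicle libraries, and rose by 1.05 ± 0.30 with overlapping groups. The gene length given for this row was 332 bases, where the median over all rows was 3590, so these reads may not stand for the whole gene. The receptor tyrosine kinase Axl rose by 0.70 ± 0.23, also with overlap, and did not pass with the same total in every library (adjusted p = 0.0894). In KO cells Axl was at 0.69 ± 0.23 with agonist and did not pass (limma, adjusted p = 0.0582). Its interaction was 0.01 ± 0.33 (limma, adjusted p = 0.983). Of the 11 targets 4 passed the interaction test, all higher, which is 36.4%, where 41.1% of all rows passed, 21.5% higher.

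In KO cells 4 of these 11 targets passed, where 4.66% of all rows were higher and 4.64% lower. They were named after their values were seen. Myof, a membrane-repair protein, was at 0.24 ± 0.07, the Rac exchange factor Dock5 at 0.28 ± 0.09, Arhgef17 at 0.17 ± 0.05 and F3 at -0.40 ± 0.12 (limma, adjusted p = 0.0287, 0.0428, 0.0401 and 0.0417). Each of these calls, and that of Amot, was lost in turn without KO agonist libraries 1, 5 and 6 and without at least 2 further libraries. F3 was thus higher with agonist in WT cells and lower in KO cells, and it was also lower under vehicle in KO than in WT cells, at -0.67 ± 0.12. Gadd45a was higher under vehicle in KO cells, at 0.42 ± 0.09. Under vehicle 5 of the 11 targets passed between KO and WT cells, 4 higher in KO cells and 1 lower, F3. This is 45.5% of the list, where 47.8% of all rows passed. F3 alone among those 5 therefore stood in the direction opposite to Ankrd1. Of the 4 other CCN genes, Ccn3 to Ccn6, 0 had a row of their own.

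**Figure D4:**
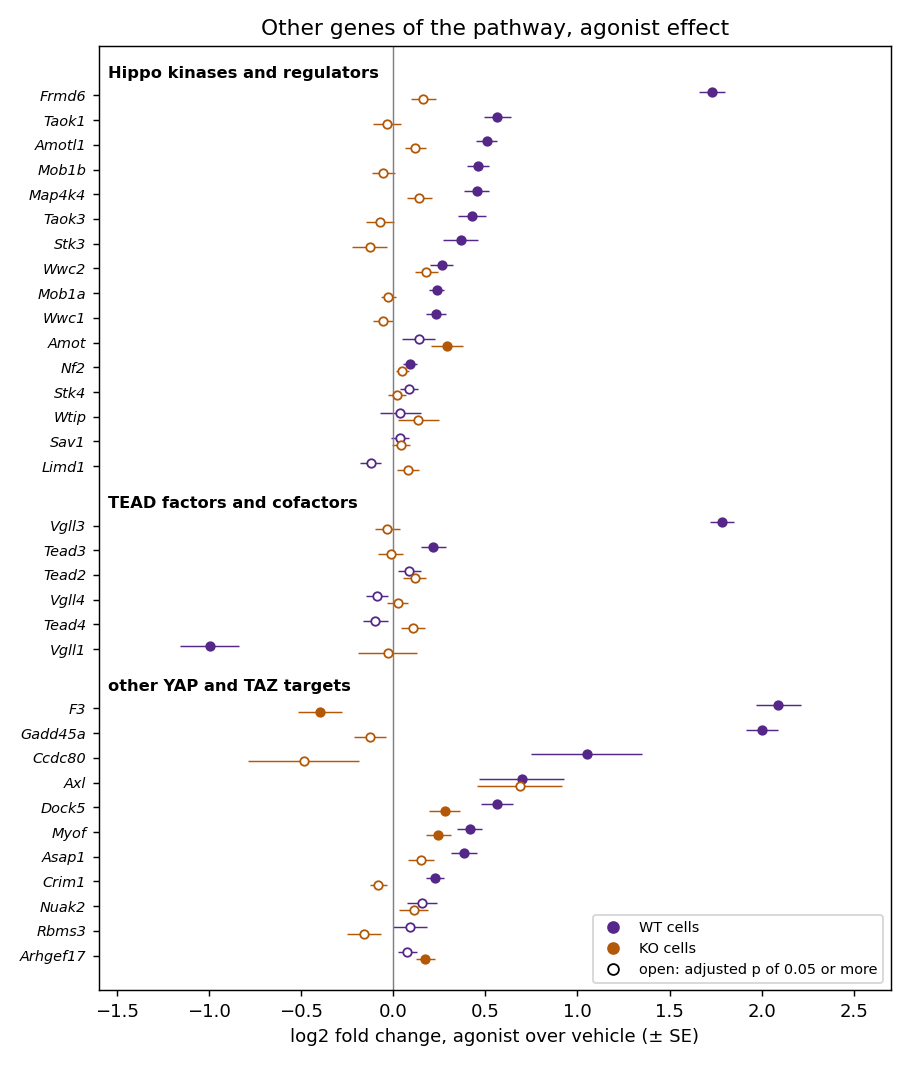
Log2 fold change with agonist of the tested genes of the 3 pathway lists, with WT cells above KO cells for each gene, bars for ± 1 SE and filled points for an adjusted p under 0.05. F3, Gadd45a, Vgll3 and Frmd6 stand out in WT cells, with values from 1.73 to 2.09, and the KO values of most genes lie near 0.

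The genes whose group means ran closest to those of the 3 strongest targets were found among 11013 genes, as the root mean square difference of the 4 centred log2 group means. For Ankrd1 they were 1110002E22Rik (0.315), Ppbp (0.376) and Nr4a3 (0.397). Ccn1 was matched more closely, by Ptgs2 (0.120), Ppbp (0.128) and Dusp2 (0.230). For Ccn2 they were Dusp14 (0.0525), Prss22 (0.0636) and Cdc42ep3 (0.0663). Ptgs2 averaged 900.0 ± 131 scaled units in WT agonist and 80.9 ± 17.3 in WT vehicle libraries, and 102 ± 14.7 in KO agonist and 124 ± 23.5 in KO vehicle libraries (SD, n = 6 each). Dusp14 averaged 241 ± 39.2 in WT agonist and 41.8 ± 2.48 in WT vehicle libraries, and 48.3 ± 4.24 in KO agonist and 48.6 ± 4.20 in KO vehicle libraries (SD, n = 6 each). The measure uses 4 group means and is a description of likeness only.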

How the data were processed

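The authors deposited 1 table with a signal value per gene and library and a gene length, for 12224 rows and 24 libraries. The submitters' processing notes name the assembly GRCm39 and the tools DESeq, DESeq2 and STAR 2.7.8a, without their roles, and the strand setting of the counting is not given in the sources used here, so reads of overlapping antisense genes could be shared. Multiplied by gene length, each deposited signal was a multiple of 0.1, and a factor per library, 0.754 to 1.46, turned at least 99.9% of values into whole reads within a tolerance of 0.05. These reads, 29.8 to 51.9 M per library, are normalised in the table, so a count test was not the main result.

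The table was multiplied by 92.1 to a mean column total of 1000000 scaled units, with the authors' factors between libraries kept. Rows with a mean of at least 1 were fitted as log2(scaled units + 0.5), which understates changes of low genes, with 1 term per group in limma 3.58.1 (R 4.3.3, trend and robust settings, two-sided, Benjamini-Hochberg over 11557 rows, threshold 0.05). The fit was tested on simulated data. Ratios were tested with scipy 1.17.1, and tables were handled with numpy 2.4.6 and pandas 2.3.3. The ratio of Lats2 to Lats1 could not be computed, so 6 ratio tests were adjusted together. Groups and replicate numbers came from the sample titles. Alternatives were the pseudocount, filter, scaling, empirical Bayes settings, groups fitted, a replicate block, libraries left out and voom on the recovered reads, the last chosen after the data were seen.

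The genes, lists and tests were chosen with earlier results of these data known. Genes outside the 9 were named as up to 4 per list called in WT cells with agonist and up to 2 called in KO against WT cells, by size, and any other named gene was chosen after its values were seen.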

Additional observations from a re-analysis of the deposited data

Results flagged for a closer look

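Within a group of 6 libraries, a value was marked where the gap of the highest or lowest library to its nearest neighbour was a large share of the group's range. Of 36 groups tested, 5 had such a library, and chance marks about 1 in 20 groups. KO vehicle library 6 accounted for 3 of the 5: Ajuba was at 142 scaled units there, with the next KO vehicle library at 191, Lats1 was at 52.1, next to 41.1, and Tead1 was at 59.8, next to 39.2. Lats1 was also at 47.4 in WT agonist library 3, with the next at 53.8, and at 39.7 in WT vehicle library 6, with the next at 43.0.

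The agonist effect differed between WT and KO cells by the interaction test for 7 genes. The WT effect minus the KO effect was 3.76 for Ankrd1, 3.74 for Ccn1, 2.67 for Ccn2, 0.62 for Wwtr1, 0.34 for Lats1, -0.26 for Ajuba and -0.30 for Amotl2, all as log2 fold changes.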

How the results depend on the processing

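Of 21 results of the 9 genes that passed, 15 kept their direction and side of the threshold under every alternative run for them. There were 36 alternatives, each library left out counting as 1, and the fit of the compared groups alone was not run for the interaction. The count of genes called by limma in KO cells was 0 under plain empirical Bayes, with the compared groups fitted alone, and without KO vehicle library 6 and KO agonist library 2 together, with 1, 1 and 2 genes at an unadjusted p under 0.05. Of all rows, 8.47%, 8.54% and 22.7% were called in these fits. Leaving out 1 library gave 6 to 7 genes in WT cells, 0 to 1 in KO cells, 6 to 7 for the interaction and 5 to 7 for KO against WT cells. The shares of all rows called were then 53.1 to 64.8%, 2.46 to 16.0%, 38.5 to 46.4% and 44.6 to 52.5%, in the same order. Without those 2 libraries together, Amotl2 in KO cells was at -0.028, Lats1 at 0.053, Wwtr1 at 0.021 and Tead1 at 0.10, opposite in sign to their values above. With the same total in each library, Lats1 was at 0.0062 and Wwtr1 at 0.026 in KO cells and Tead3 at -0.022 in WT cells, and under quantile scaling Wwtr1 was at 0.016 in KO cells, again opposite in sign. Of these reversed results, that of Tead3 alone had passed. Mob1a, Nf2, Wwc1 and Crim1, named above, had also passed in WT cells and changed sign at equal library totals. The cause was not tested. Leaving out 1 library or that pair, values in KO cells ran from -0.12 to 0.0079 for Ankrd1, -0.20 to 0.0056 for Ccn1, -0.25 to -0.057 for Ccn2, -0.028 to 0.064 for Amotl2, -0.065 to 0.053 for Lats1, -0.044 to 0.021 for Wwtr1 and -0.079 to 0.10 for Tead1. Ajuba in KO against WT cells ran from -0.015 to 0.081, and the log2 difference of the Ccn1 to Ccn2 ratio in KO cells from -0.019 to 0.097. Same-numbered libraries of different groups showed no common deviation, with a median correlation of 0.02 over 36 pairs, from -0.31 to 0.49. Of 24 libraries, 5 were closest to their own number. These correlations cannot show whether same-numbered libraries were prepared together. With the replicate block 7 genes passed in WT cells, 1 in KO cells, 7 for the interaction and 5 for KO against WT cells, where Wwtr1 was at 0.14 (limma, adjusted p = 0.0595). Of all rows, 57.0%, 9.71%, 40.9% and 47.7% passed with the block. Over all rows, 1075 were called in KO cells, but 284 without KO agonist library 1, 589, 429, 481 and 441 without KO agonist libraries 3, 4, 5 and 6, 663 and 610 without KO vehicle libraries 3 and 5, 1851 without KO agonist library 2 and 2623 without the pair. For the interaction 7546 rows were called at equal library totals, against 4746.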
